A study of Mus musculus with 8 samples.

Results

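The transcription factors that specify and mature skeletal muscle cells, and a few genes that mark or act beside them, were read in tibialis anterior (TA) muscle, a fast-twitch muscle of the lower leg, from aged wild-type and Mybpc2 knockout mice. The set of 10 genes was fixed by symbol and holds Pax7, Myf5, Myod1, Myf6, Myog, Mef2a, Mef2c, Mef2d, Mymk and Cdh15. All 10 were found among the 16686 genes with an identifier in the deposited table, and all 10 were among the 12542 genes with enough counts to be tested. The samples were 4 wild-type (WT) and 4 C2-/- mice, all male, of FVBN background and labelled as 22 months old, with 1 library per mouse. In C2-/- mice, exons 2 to 22 of Mybpc2, which encodes fast myosin-binding protein C, were replaced by a Neo cassette between LoxP sites, so the allele is constitutive and carries the cassette in every cell. The comparison asks how loss of this thick-filament protein alters gene expression in old fast-twitch muscle, and here it is read for the myogenic factors.

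Skeletal muscle repairs itself through satellite cells, which lie against the fibre, carry PAX7 and in part MYF5, and divide when the muscle is damaged. The myogenic regulatory factors (MRFs) MYF5, MYOD1, MYF6 and MYOG are basic helix-loop-helix proteins that pair with E proteins, bind the E-box sequence CANNTG and drive cells to become muscle, while MEF2 proteins bind an A/T-rich site and act with them. In adult fibres MYF6 (MRF4) is the prevalent MRF and MYOG is low, and MYOG and MYOD1 are known to increase when a fibre loses its nerve.

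Library totals lay between 25425993 and 29747692 counts, where 3 counts correspond to 0.101 to 0.118 CPM (counts scaled to library size). Mybpc2 itself was at 4964, 5450, 5101 and 7392 CPM in WT and at 4.35, 4.02, 38.3 and 3.85 CPM in C2-/- mice, a log2 fold change of -8.82 (SE 0.94, edgeR's quasi-likelihood test, Benjamini-Hochberg adjusted p = 0.0075). C2-/- replicate 3 had the highest Mybpc2 of the C2-/- libraries and also the highest Myod1, Myog, Myf6 and Mymk among them. Fast-fibre markers were abundant everywhere, with a summed level of 132955 to 179370 CPM in WT and 137577 to 157113 CPM in C2-/- mice, against 43.4 to 80.4 and 43.8 to 59.3 CPM for slow-fibre markers. WT replicate 2 stood apart in this set and more widely, since 27.5% of all tested genes had their highest value of the 8 mice in that library, and its values are set beside the results below. It was singled out with these values in view, so the fits without it are descriptions and not tests of their own.

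Per transcript length, Mef2c, Mef2d and Myf6 were the most abundant of the 10 genes in the mean over WT mice, and Myf5 and Pax7 the least. In WT the mean FPKM (fragments scaled to transcript length and library size) was 104 ± 30.9 for Mef2c (SD, n = 4), 86.6 ± 4.4 for Mef2d, 79.5 ± 33.0 for Myf6, 39.3 ± 29.0 for Myod1 and 33.9 ± 4.4 for Mef2a. It was 9.37 ± 0.96 for Cdh15, 4.89 ± 4.3 for Myog, 1.19 ± 1.4 for Mymk, 0.245 ± 0.045 for Myf5 and 0.13 ± 0.044 for Pax7. Mef2c was thus above 96.5% and Pax7 above 24.4% of the genes in the table. The C2-/- mice gave the same order. Neighbours in the order overlapped over the 4 WT mice except at 2 steps, from Mef2a to Cdh15 and from Myf5 to Pax7. Without WT replicate 2, Myod1 averaged 24.98 FPKM in WT and passed below Mef2a at 33.5 FPKM, and without WT replicate 3, Myf6 at 88.9 FPKM passed above Mef2d at 84.5 FPKM.

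**Figure D1:**
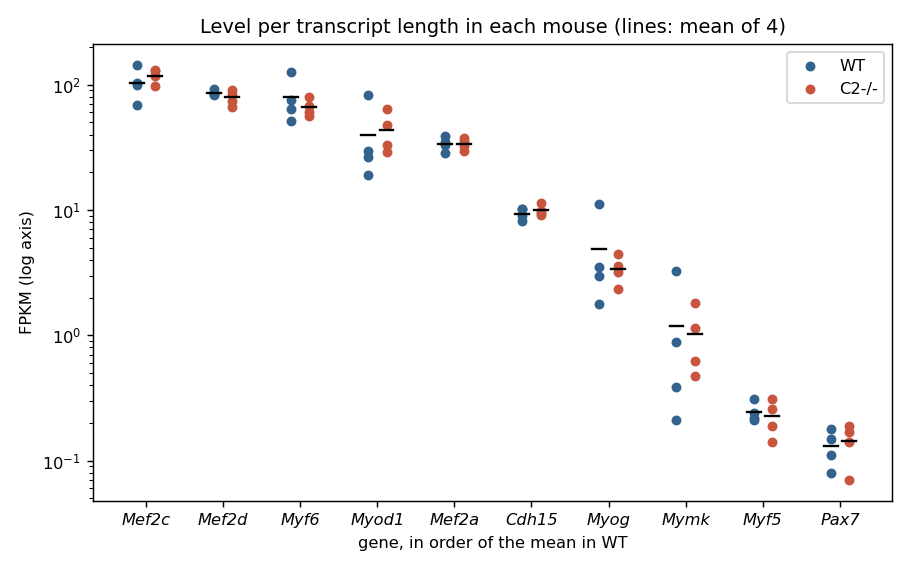
Level of the 10 genes per transcript length in each mouse, in FPKM on a log axis, with a point per mouse, blue for WT and red for C2-/-, and a line at the mean of 4 mice. The genes span about 3 orders of magnitude, from Mef2c at a WT mean of 104 FPKM to Pax7 at 0.13 FPKM, and the groups overlap for every gene.

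None of the 10 genes differed between the genotypes beyond the spread between mice. Of them, 4 had a higher and 6 a lower fitted level in C2-/- mice, the median log2 fold change was -0.12 beside -0.02 over all tested genes, and 0 were called at an adjusted p under 0.05 with a change above 1.5-fold, against 4 of 12542 genes (0.0319%) in all, by edgeR's quasi-likelihood test. At an unadjusted p under 0.05 the count was also 0 of 10, where 5.29% of all genes passed, and limma-voom and DESeq2 likewise gave 0. For none of the 10 did the CPM of the genotypes fail to overlap, which 3.38% of all genes did. The adjusted p ran from 0.968 to 0.998 in edgeR's quasi-likelihood test. The 95% interval of the fold change lay within 1.5-fold in either direction for 4 genes, Mef2a, Mef2c, Mef2d and Cdh15, and within 2-fold for 6, with Pax7 and Myf6 added. For Myf5, Myod1, Myog and Mymk it reached beyond 2-fold, so a difference of that size is not left out by these data.

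Pax7, the homeobox factor that marks satellite cells (gene ID 18509, chr4:139737059-139833026, minus strand, GRCm38.p6), was at 0.578, 0.365, 0.859 and 0.760 CPM in WT and 0.871, 0.707, 0.745 and 0.347 CPM in C2-/- mice. These values rest on 10 to 23 counts per library. The lowest mice of the groups, WT replicate 2 and C2-/- replicate 4, were nearly equal, and the log2 fold change was 0.06 (SE 0.39, 95% interval -0.82 to 0.93). Myf5, the MRF that is expressed first in the embryo and persists in many satellite cells (gene ID 17877, chr10:107482908-107486927, minus strand), was at 0.694, 0.474, 0.411 and 0.543 CPM in WT. In C2-/- mice it was at 0.265, 0.595, 0.426 and 0.555 CPM, on 7 to 18 counts per library over all 8 mice. C2-/- replicate 1 was the lowest mouse and WT replicate 1 the highest, and the log2 fold change was -0.20 (SE 0.37, interval -1.02 to 0.62). Since the RNA came from whole muscle, the number of satellite cells and the RNA per cell cannot be told apart in these values.

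Cdh15, or M-cadherin, is an adhesion molecule between satellite cell and fibre (gene ID 12555, chr8:122848374-122867397, plus strand). It was the most even of the 3 genes linked to satellite cells. Its CPM was 22.4, 29.5, 24.2 and 30.4 in WT and 25.4, 26.4, 25.4 and 30.7 in C2-/- mice. The highest mouse was 1.37 times the lowest, the groups overlapped throughout, and the log2 fold change was 0.02 (SE 0.13, interval -0.27 to 0.31). Cdh15 rested on 580 to 885 counts per library, against 10 to 23 for Pax7 and 7 to 18 for Myf5. The part of count depth in its evenness was not tested. Per transcript length Cdh15 was also far more abundant in WT, at 9.37 FPKM against 0.13 for Pax7 and 0.245 for Myf5. How much of its RNA came from satellite cells was not tested. The Cdh15 promoter is shown because among the 9 promoters examined it held the most E-boxes, 4. That number was reached by 6.49% of 32851 promoters of the same length, a rate per promoter and not for the highest of 9. None of the 9 held the E-box CAGCTG, which 16.3% of the 32851 promoters did. Binding to these sites was not tested. The Cdh15 promoter runs from 250 bases before to 50 after the start, on GRCm38.p6 in RefSeq, with the E-boxes CANNTG in capitals.

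Cdh15, chr8:122848124-122848423, plus strand: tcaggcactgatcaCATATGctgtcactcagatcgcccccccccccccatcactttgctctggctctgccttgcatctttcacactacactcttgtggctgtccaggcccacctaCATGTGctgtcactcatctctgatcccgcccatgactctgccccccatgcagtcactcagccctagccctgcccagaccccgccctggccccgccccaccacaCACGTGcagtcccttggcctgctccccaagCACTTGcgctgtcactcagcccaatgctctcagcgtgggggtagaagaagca

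Myod1, the MRF that commits cells to the muscle fate (gene ID 17927, chr7:46376474-46379092, plus strand), was among the most variable of the set. It was at 46.6, 154.8, 51.1 and 36.2 CPM in WT and at 50.6, 56.8, 115.4 and 82.5 CPM in C2-/- mice. WT replicate 2 was the highest of the 8 mice, at 3.32 times the median of the other WT mice, and C2-/- replicate 3 the second highest, at 2.03 times the median of the other C2-/- mice. The group means of 72.2 ± 55.4 and 76.3 ± 29.5 CPM (SD, n = 4 each) hardly differed, and the log2 fold change was 0.08 (SE 0.44, interval -0.90 to 1.06). Without WT replicate 2 the WT mean dropped to 44.6 CPM and the log2 fold change became 0.78 (SE 0.26, interval 0.19 to 1.37), with an adjusted p = 0.689 in edgeR's quasi-likelihood test. Its unadjusted p was 0.0145 in that edgeR fit. That mouse was picked out for its high values. Leaving it out had to raise the log2 fold change of Myod1, so this p is a description only. Without both WT replicate 2 and C2-/- replicate 3 the log2 fold change was 0.51 (SE 0.20), with an adjusted p = 0.842 in edgeR's quasi-likelihood test, unadjusted 0.0318. Without C2-/- replicate 3 alone it was -0.18 (SE 0.47).

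Myf6 (gene ID 17878, chr10:107492860-107494729, minus strand) lies next to Myf5 and is the MRF of mature fibres. It made up 66.2 ± 9.1% of the summed MRF FPKM in WT and 59.2 ± 6.7% in C2-/- mice (SD, n = 4 each), with Myod1 at 30.01 ± 7.96% and 37.6 ± 7.2%, Myog at 3.56 ± 1.33% and 3.01 ± 0.56%, and Myf5 at 0.231 ± 0.095% and 0.204 ± 0.079%. Its CPM was 74.5, 157.3, 58.7 and 94.7 in WT and 69.4, 77.2, 94.9 and 65.3 in C2-/- mice. WT replicate 2 was again highest, at 2.11 times the median of the other WT mice, and C2-/- replicate 3 was just above WT replicate 4. The log2 fold change was -0.33 (SE 0.27, interval -0.93 to 0.27) and became 0.02 (SE 0.18) without WT replicate 2.

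Myog, or myogenin, drives terminal differentiation in development and induces acetylcholine receptor and atrophy genes in denervated fibres (gene ID 17928, chr1:134290004-134292548, plus strand). It was at 4.90, 16.7, 4.11 and 2.68 CPM in WT and at 4.39, 4.84, 6.31 and 3.26 CPM in C2-/- mice. WT replicate 2 was 4.06 times the median of the other WT mice, and the other 7 mice lay between 2.68 and 6.31 CPM. The coefficient of variation was 91.0% in WT and 26.9% in C2-/- mice, against medians of 19.7% and 14.0% over all tested genes. The log2 fold change was -0.59 (SE 0.50, interval -1.70 to 0.52), and 0.28 (SE 0.27, interval -0.31 to 0.87) without WT replicate 2, so its sign rested on that mouse. The Myog promoter is printed because it is a textbook case of an MRF promoter with both kinds of site. In capitals are the E-boxes CACATG and CAGTTG, at positions -138 and -12 from the start, and between them the MEF2 core TATATTTA at -63. The MEF2 core searched was TA, then 4 letters each A or T, then TA, on both strands. Of 32851 promoters, 72.3% held an E-box, 9.32% a MEF2 core and 7.01% both.

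Myog, chr1:134289754-134290053, plus strand: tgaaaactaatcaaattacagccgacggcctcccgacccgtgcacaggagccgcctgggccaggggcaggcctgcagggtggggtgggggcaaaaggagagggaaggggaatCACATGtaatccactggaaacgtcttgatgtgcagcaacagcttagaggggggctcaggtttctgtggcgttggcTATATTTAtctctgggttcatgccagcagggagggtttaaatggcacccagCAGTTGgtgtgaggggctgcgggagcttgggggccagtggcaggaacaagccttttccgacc

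Mymk, or myomaker, the membrane protein required for myoblasts to fuse (gene ID 66139, chr2:27061636-27072161, minus strand), had the widest range of the 10 genes. It was at 0.231, 4.45, 0.485 and 1.23 CPM in WT and at 0.757, 1.26, 2.38 and 0.589 CPM in C2-/- mice, on 6 to 122 counts per library. WT replicate 2 was 9.17 times the median of the other WT mice and C2-/- replicate 3 was 3.14 times that of the other C2-/- mice, the same mice that led for Myod1, Myf6 and Myog. The log2 fold change was -0.36 (SE 0.78, interval -2.09 to 1.37), and 0.94 (SE 0.62, interval -0.43 to 2.31) without WT replicate 2. Neither interval left out 0.

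**Figure D2:**
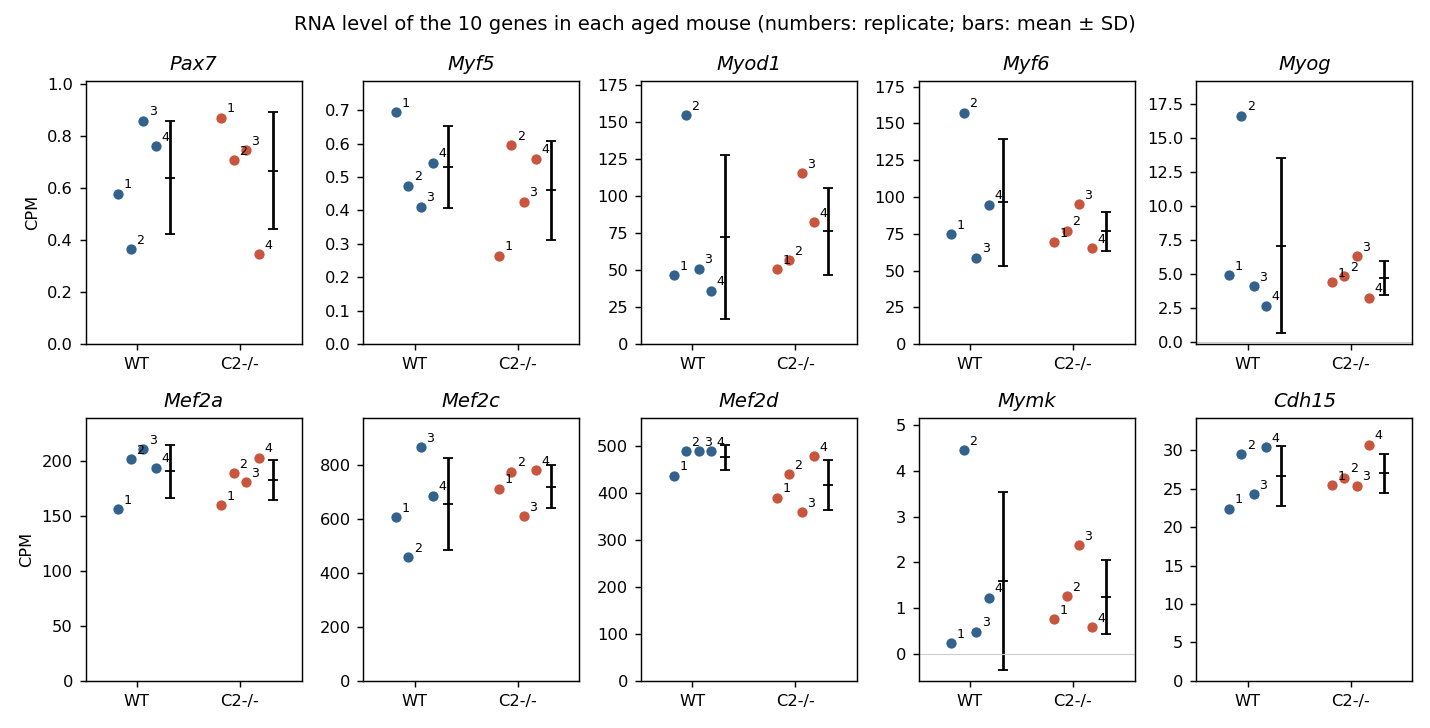
CPM of each of the 10 genes in each mouse on linear axes from 0 or below, with the replicate number beside each point and the mean ± SD of 4 mice as a bar. WT replicate 2 is the top point for Myod1, Myf6, Myog and Mymk and the bottom point for Mef2c, while Mef2a, Mef2d and Cdh15 stay within narrow ranges.

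Mef2a and Mef2d varied little between mice. Mef2a (gene ID 17258, chr7:67231163-67372999, minus strand) was at 157, 202, 211 and 194 CPM in WT and at 160, 189, 181 and 203 CPM in C2-/- mice. The highest mouse was 1.35 times the lowest, and the log2 fold change was -0.06 (SE 0.13, interval -0.34 to 0.22). Mef2d (gene ID 17261, chr3:88141966-88173129, plus strand), whose muscle isoform activates late muscle genes, was at 436, 489, 488 and 489 CPM in WT and at 390, 440, 359 and 478 CPM in C2-/- mice. The WT mice other than replicate 1 nearly coincided and lay above all 4 C2-/- mice, while WT replicate 1 lay between C2-/- replicates 1 and 2. The log2 fold change of Mef2d was -0.19 (SE 0.12, interval -0.45 to 0.07), with the lowest p of the 10 genes, 0.134 unadjusted and 0.968 adjusted in edgeR's quasi-likelihood test.

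Mef2c, the most abundant MEF2 gene here (gene ID 17260, chr13:83504034-83667661, plus strand), was lowest in the mouse with the highest Myod1, Myf6 and Myog. It was at 607, 457, 866 and 687 CPM in WT and at 713, 775, 611 and 782 CPM in C2-/- mice. WT replicate 2 was the lowest mouse, at 0.666 times the median of the other WT mice, and C2-/- replicate 3 was the lowest C2-/- mouse. The log2 fold change was 0.14 (SE 0.18, interval -0.27 to 0.54), and 0.01 (SE 0.14) without WT replicate 2. Of the summed FPKM of the 3 MEF2 genes, Mef2c held 45.6 ± 6.7% in WT and 51.1 ± 1.5% in C2-/- mice (SD, n = 4 each), Mef2d 39.2 ± 4.9% and 34.2 ± 0.8%, and Mef2a 15.3 ± 2.1% and 14.7 ± 1.3%. In WT replicate 2 alone Mef2d, at 45.5%, exceeded Mef2c, at 36.3%. RefSeq places long noncoding genes over Mef2c, Mef2d and Pax7, and as the strand used in counting was not stated, reads from the overlaps may be shared.

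The first Mef2c promoter and that of Mef2a are printed because each held a MEF2 core, in capitals with the E-boxes. In Mef2c the core TAATTTTA lay at position -145 from the start, with the E-boxes CAAGTG at -234 and CATATG at -100. In Mef2a the core TAAAAATA was part of a full match to the longer MEF2 consensus, which 3.19% of promoters held. Promoters were found for 7 of the 10 genes, Mef2c having 3 of them. Those of Pax7, Myf5, Mef2d and the second of Mef2c held neither an E-box nor a MEF2 core, and the third of Mef2c held an E-box only.

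Mef2c, chr13:83503784-83504083, plus strand: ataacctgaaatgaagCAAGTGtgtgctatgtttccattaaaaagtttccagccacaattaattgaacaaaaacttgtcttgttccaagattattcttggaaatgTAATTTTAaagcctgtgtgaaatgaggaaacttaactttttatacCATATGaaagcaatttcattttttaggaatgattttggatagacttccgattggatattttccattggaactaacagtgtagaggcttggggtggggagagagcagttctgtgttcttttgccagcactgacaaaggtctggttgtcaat
Mef2a, chr7:67372809-67373108, minus strand: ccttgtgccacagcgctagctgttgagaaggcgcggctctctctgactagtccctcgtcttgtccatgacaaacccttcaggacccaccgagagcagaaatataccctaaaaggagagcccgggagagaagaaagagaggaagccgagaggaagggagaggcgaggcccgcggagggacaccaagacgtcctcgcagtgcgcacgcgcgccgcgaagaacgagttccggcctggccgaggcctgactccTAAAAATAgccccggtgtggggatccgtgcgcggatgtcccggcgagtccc

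**Figure D3:**
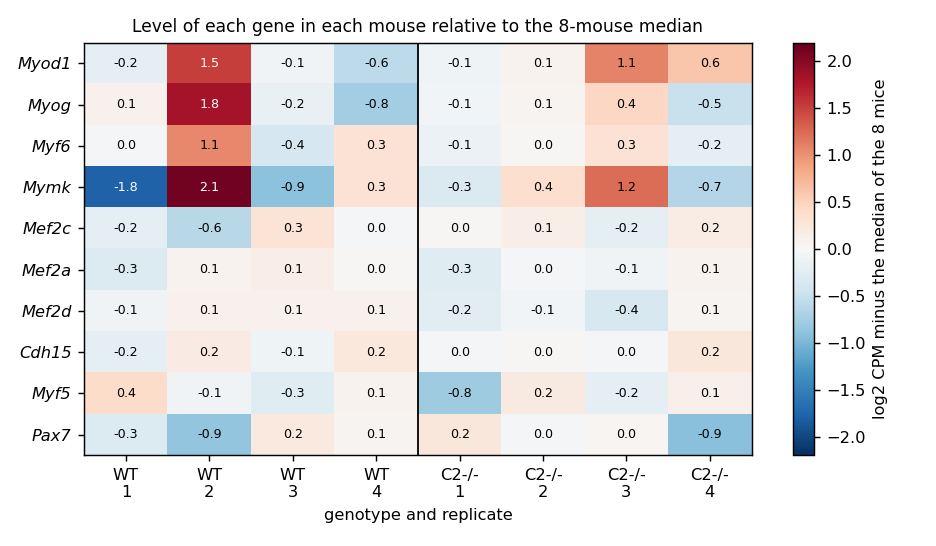
Log2 CPM of each gene in each mouse minus the median of the 8 mice, red for higher and blue for lower, with WT to the left of the line. The WT replicate 2 column is red for Myod1, Myog, Myf6 and Mymk and blue for Mef2c and Pax7, and the C2-/- replicate 3 column has smaller values of the same sign in the first 5 rows.

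Between mice, the 10 genes gave 45 pairs, and 0 pairs were correlated after Benjamini-Hochberg adjustment in an exact permutation test over the 8 mice. Before adjustment 4 of the 45 pairs had an exact permutation p under 0.05. All 4 had an MRF in them, as most of the 45 pairs do. Myf6 and Mef2c ran in opposite directions, with Pearson's r = -0.90 (exact permutation p = 0.00446, adjusted p = 0.172) and Spearman's rho = -0.81 (exact permutation p = 0.0218, adjusted p = 0.49). Myf6 and Mymk went together, with r = 0.84 (exact permutation p = 0.00774, adjusted p = 0.172) and rho = 0.83 (p = 0.0154, adjusted p = 0.49). Myod1 and Myog gave r = 0.80 (exact permutation p = 0.0115, adjusted p = 0.172) and rho = 0.60 (p = 0.132, adjusted p = 0.744). Myog and Mef2c gave r = -0.81 (exact permutation p = 0.0255, adjusted p = 0.287) and rho = -0.69 (p = 0.0694, adjusted p = 0.625).

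With the 2 mice farthest from the median of the first gene left out, WT replicate 2 being among them each time, the r of these pairs was -0.53, 0.67, 0.13 and -0.69, in the same order, and none had an exact permutation p under 0.05 (0.286, 0.149, 0.793 and 0.122). The r of Myod1 with Myog was thus lost, while the others became smaller over 6 mice, and without WT replicate 2 alone the 4 values were -0.71, 0.69, 0.55 and -0.39. Without WT replicate 1, which had the lowest Mymk, 3 pairs passed adjustment over 7 mice, namely Myf6 with Mef2c (r = -0.96, exact permutation adjusted p = 0.0298), Myf6 with Mymk (r = 0.96, adjusted p = 0.0268) and Mef2c with Mymk (r = -0.93, adjusted p = 0.0298). With any other mouse left out, 0 pairs passed adjustment. Leaving mice out was chosen after seeing the data, and the adjustment does not cover the choice of mouse, so these p-values are descriptions only.

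Among all tested genes, those whose log2 CPM followed a member most closely over the 8 mice were picked by rank of Pearson's r, as a description without a test, since all values share the same 8 libraries. For Mymk the first was Chrng, the fetal acetylcholine receptor subunit (r = 0.97), which was at 2.12 CPM in WT replicate 2 and between 0.231 and 0.922 CPM in the other mice. For Myog the leading genes were Ddx28 (r = 0.98) and Atoh8, another basic helix-loop-helix factor (r = 0.97), the latter at 60.0 CPM in WT replicate 2 and at 10.1 to 21.2 CPM elsewhere. Vps29 came first for Myod1 (r = 0.98), Sec62 for Myf6 (r = 0.99), Tanc2 for Mef2c (r = 0.99), Limd1 for Mef2a (r = 0.96) and the phosphodiesterase gene Pde4b for Mef2d (r = 0.97). Sema5b came first for Pax7 (r = 0.97), Acaa1b for Myf5 (r = 0.95) and Fbxw17 for Cdh15 (r = 0.98).

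The partners and regulators of these factors, as lists, also gave 0 genes called in edgeR's quasi-likelihood test, and the counts at an unadjusted p under 0.05 are set beside 3.38% of all genes higher and 1.91% lower in C2-/- mice. The E proteins Tcf3, Tcf4 and Tcf12, the dimer partners of the MRFs, had 0 of 3 such genes and a median log2 fold change of -0.04. Of 16 tested inhibitors and repressors of the MRFs, 1 passed, Id1, which sequesters E proteins, with a log2 fold change of -0.91 (SE 0.39, unadjusted p = 0.0421, adjusted p = 0.919 by edgeR's test). Id1 was at 9.87, 29.1, 9.0 and 14.0 CPM in WT and at 6.02, 13.1, 8.12 and 5.86 CPM in C2-/- mice, again highest in WT replicate 2, without which its log2 fold change was -0.40 (SE 0.28). Of 23 MEF2 co-regulators 0 passed, with a median of 0.03, and among them Mamstr, a MEF2 co-activator, had a log2 fold change of 0.43 (SE 0.21) and Vgll2 one of -0.58 (SE 0.36). Vgll2 was at 614 CPM in WT replicate 2 and between 160 and 321 CPM in the other mice, and its log2 fold change was -0.10 (SE 0.24) without that mouse.

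Of 14 other genes linked to satellite cells 0 passed and the median log2 fold change was -0.07. They include Des, at 5768 to 6627 CPM over all mice, which is also among the muscle target genes below. Which cells gave the RNA of these genes was not tested. Sdc4 was at -0.44 (SE 0.22), or -0.24 (SE 0.19) without WT replicate 2, and Cd34 at 0.33 (SE 0.17). Of 11 fusion and regeneration genes, 2 passed, both higher in C2-/- mice and both developmental myosins. Embryonic Myh3 was at 1.97, 1.605, 2.43 and 1.23 CPM in WT and at 2.61, 1.49, 8.76 and 3.09 CPM in C2-/- mice (log2 fold change 1.14, SE 0.49, unadjusted p = 0.0406, adjusted p = 0.919 by edgeR's test). Perinatal Myh8 was at 1.74, 1.605, 4.26 and 1.92 CPM in WT and at 2.35, 4.02, 7.2 and 4.26 CPM in C2-/- mice (log2 fold change 0.91, SE 0.39, unadjusted p = 0.0433). Both myosins were highest in C2-/- replicate 3, and Myh8 was lowest in WT replicate 2. Without WT replicate 2 neither passed (unadjusted p = 0.0698 and 0.0888 in edgeR's test), while Myl4, the embryonic myosin light chain gene, did, with a log2 fold change of 1.16 (SE 0.28, unadjusted p = 0.00217, adjusted p = 0.421 by edgeR's test). In that fit 4.05% of all genes passed as higher and 1.84% as lower. Myl4, and Klf5 in the next list, were named with their values in view. Of 16 upstream myogenic regulators, 1 passed, the homeobox gene Msx1, with a log2 fold change of 0.40 (SE 0.17, unadjusted p = 0.0388). Without WT replicate 2 Msx1 did not pass (0.39, SE 0.18, unadjusted p = 0.0594 in edgeR's test), and Klf5 did, at 0.46 (SE 0.14, unadjusted p = 0.00785 in the same test).

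Among 23 muscle genes known as targets of MYOG or MEF2, 18 were lower and 5 higher in C2-/- mice, with a median log2 fold change of -0.13, and 3 passed at an unadjusted p under 0.05. Over all tested genes, 5738 of 12542 were higher, the median was -0.02 and 5.29% passed. Of the 23, 9 were highest in WT replicate 2 and 8 in WT replicate 4, beside 27.5% and 9.27% of all tested genes. Slc2a4, the insulin-responsive glucose transporter and a MEF2 target, was at 791, 817, 702 and 699 CPM in WT and at 681, 584, 615 and 556 CPM in C2-/- mice. Its groups did not overlap, and its log2 fold change was -0.31 (SE 0.11, unadjusted p = 0.0205, adjusted p = 0.849 by edgeR's test). Actc1, the cardiac actin of developing muscle, had a log2 fold change of 0.94 (SE 0.41, unadjusted p = 0.0431). The cell cycle inhibitor gene Cdkn1a, at -2.02 (SE 0.84, unadjusted p = 0.0369), was at 405 CPM in WT replicate 2 and between 22.6 and 43.1 CPM in the other 7 mice. Without WT replicate 2 the log2 fold change of Cdkn1a was 0.0097 (SE 0.23), that of Actc1 0.85 (SE 0.44, unadjusted p = 0.0843 in edgeR's test) and that of Slc2a4 -0.26 (SE 0.11, unadjusted p = 0.0424), the only 1 of the 23 still past that threshold.

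The list of the denervation response, in which HDAC4, HDAC9 and DACH2 act upstream of MYOG and the receptor and atrophy genes downstream, had 14 tested genes and a median log2 fold change of -0.37. At an unadjusted p under 0.05, 1 gene was higher, Myh3, and 2 were lower, Chrnd and Fbxo32. Chrnd, the delta subunit of the acetylcholine receptor and a classic MYOG target, was at 6.09, 9.08, 4.03 and 3.87 CPM in WT and at 3.82, 2.83, 3.30 and 2.98 CPM in C2-/- mice. Its groups did not overlap, the lowest WT mouse being just above the highest C2-/- mouse, and the log2 fold change was -0.84 (SE 0.28, unadjusted p = 0.0121, adjusted p = 0.755 by edgeR's test). Fbxo32, or atrogin-1, an atrophy ubiquitin ligase, was at 202, 971, 236 and 530 CPM in WT and at 200 to 242 CPM in C2-/- mice (log2 fold change -1.13, SE 0.42, unadjusted p = 0.0234, adjusted p = 0.857 by edgeR's test).

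In WT replicate 2, the mouse with the highest Myog, 9 of these 14 genes had their highest value of the 8 mice, beside 27.5% of all genes tested. Left out of the fit, that mouse took the median log2 fold change of the list from -0.37 to -0.02, Fbxo32 to -0.53 (SE 0.28) and Chrnd to -0.52 (SE 0.21, unadjusted p = 0.0345, adjusted p = 0.787 by edgeR's test). In that fit 2 of the 14 genes were higher and 1, Chrnd, lower at an unadjusted p under 0.05. Runx1 went from -0.22 to 0.94 (SE 0.25, unadjusted p = 0.00413, adjusted p = 0.471 by edgeR's test) and Sln from -0.82 to 1.13 (SE 0.42, unadjusted p = 0.0224, adjusted p = 0.739), and Gadd45a went from -0.14 to 0.68 (SE 0.32, unadjusted p = 0.0574). The choice of Runx1, Sln, Gadd45a and the genes named next was made with their values in view. The ubiquitin ligase Trim63 was at 682 CPM there against 82.1 to 179 CPM in the other mice, Gadd45a at 40.0 against 6.54 to 22.8 CPM, Runx1 at 21.4 against 2.88 to 9.63 CPM and Sln at 18.4 against 0.859 to 5.2 CPM. Chrna1 was at 60.3 against 15.4 to 26.3 CPM and Ncam1 at 38.2 against 11.9 to 18.4 CPM. The upstream repressor gene Hdac9 was at 1.79 CPM, below the 3.69 to 11.1 CPM of the other mice. Hdac4 was also lowest in WT replicate 2, at 25.1 against 26.8 to 60.8 CPM. Musk at 19.7 CPM and Dach2 at 1.57 CPM lay within the ranges of the other mice, 8.55 to 25.7 and 1.09 to 4.48 CPM. Myh3 was at 0.661 times the median of the other mice. The list thus did not move in 1 direction in that mouse. Summed over the list, WT replicate 2 was at 1894 CPM, the other WT mice at 404, 460 and 867 CPM and the C2-/- mice at 425 to 519 CPM. C2-/- replicate 3, the second highest for Myog, was at 519 CPM. In WT replicate 2, Fbxo32 at 971 CPM and Trim63 at 682 CPM made up most of this sum. Fbxo32 was at 530 CPM in WT replicate 4. The sum thus mainly follows these abundant ligase genes and not the list as a whole.

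**Figure D4:**
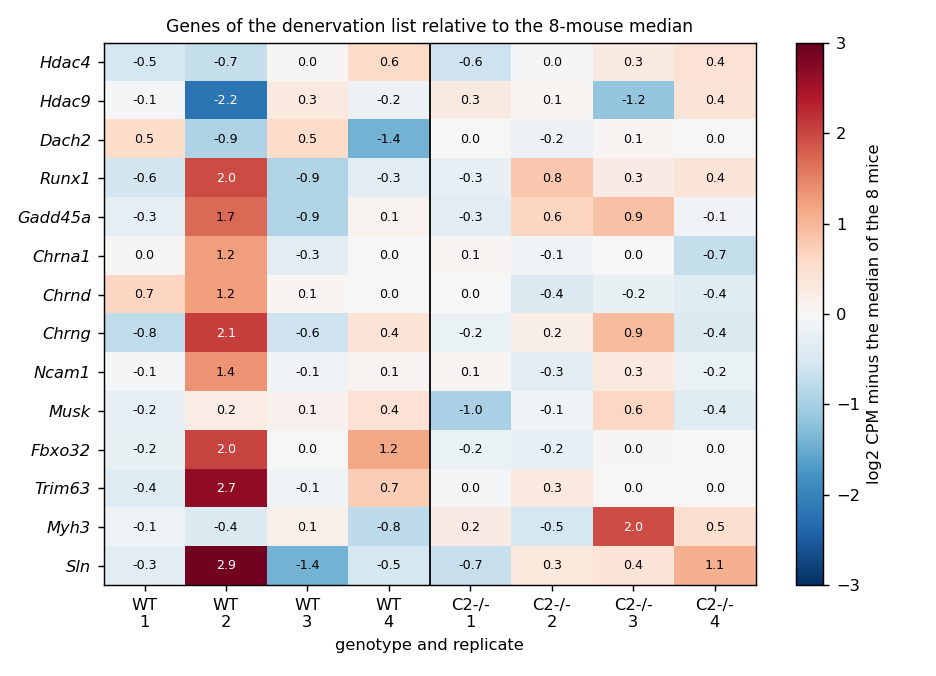
Log2 CPM of the 14 tested genes of the denervation list in each mouse minus the median of the 8 mice, red for higher and blue for lower, with WT to the left of the line. The WT replicate 2 column is strongly red for Sln, Trim63, Chrng, Runx1 and Fbxo32 and blue for Hdac9, and no other mouse has such a column. It is also blue, less strongly, for Dach2, Hdac4 and Myh3.

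Other contents of the tissue were read over the same mice. The summed Schwann cell markers, of which Mbp and Sox10 are defining, were at 30.1 CPM in WT replicate 2 and 28.0 CPM in C2-/- replicate 3, near the 31.2 CPM of C2-/- replicate 2, with 36.1 to 82.0 CPM in the other 5 mice. The red cell markers were highest in WT replicate 2, at 6293 CPM, with C2-/- replicate 4 at 5886 CPM and the lowest mouse at 483 CPM. Immediate early genes were at 543 CPM in WT replicate 2, 1227 CPM in WT replicate 4 and 762 CPM in C2-/- replicate 2 and between 34.9 and 83.1 CPM elsewhere. Among these mice, WT replicate 4 had the lowest Myod1 of all 8 mice, at 36.2 CPM, and WT replicate 2 the highest, at 154.8 CPM. Myod1 was at 56.8 CPM in C2-/- replicate 2. Macrophage markers lay between 17.97 and 48.6 CPM, with WT replicate 2 at 41.95 and C2-/- replicate 3 at 48.6 CPM. Of 6 fibro-adipogenic progenitor markers all 6 were higher in C2-/- mice, with 2 at an unadjusted p under 0.05, and their sum was 245 to 339 CPM in WT and 361 to 409 CPM in C2-/- mice. Tendon markers summed to 59.5 to 195 CPM in WT and 99.0 to 273 CPM in C2-/- mice, with 6 of 7 higher and 1 of them, Tnmd, at an unadjusted p under 0.05. Beside both counts, 5738 of all 12542 tested genes were higher in C2-/- mice, and 3.38% were higher at an unadjusted p under 0.05. The part of these contents in the values of the myogenic factors was not tested.

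**Figure D5:**
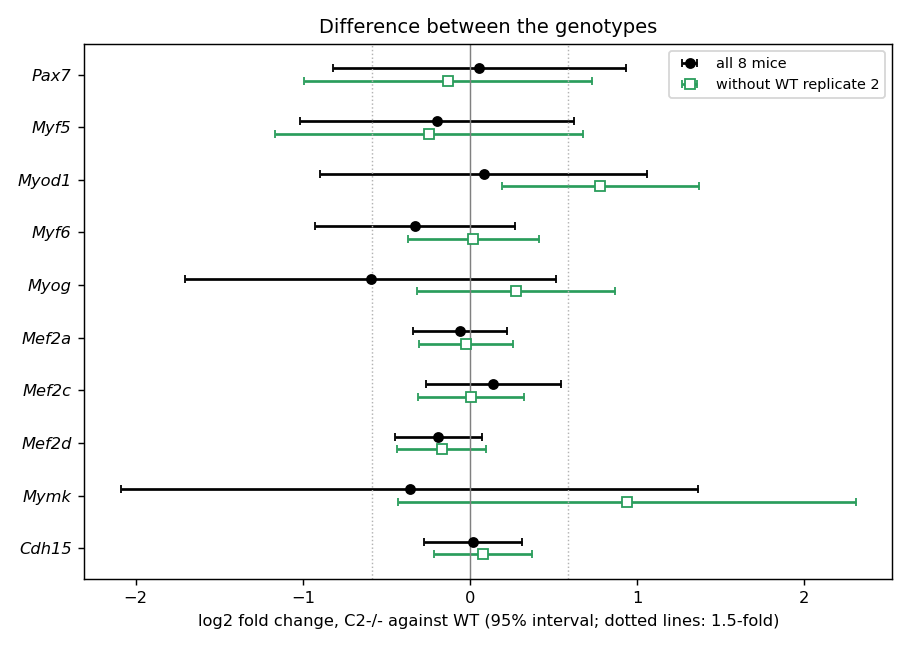
Log2 fold change of each gene, C2-/- against WT, with its 95% interval from edgeR, for all 8 mice as filled circles and without WT replicate 2 as open squares. The intervals with all mice include 0 for all 10 genes, and without that mouse Myod1 moves to 0.78, Myog to 0.28 and Mymk to 0.94. That mouse was singled out with its high values in view.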

How the data were processed

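RNA was sequenced from the TA muscle of 4 WT and 4 C2-/- mice, grouped by their labels. All carry an age of 22 months, although the growth note in the labels names a younger age. The submitters' processing notes list HISAT, Bowtie2, DESeq2 and GRCm38.p6, and the study's methods name featureCounts. The authors deposited estimated counts per gene, of which 5.5% to 6.53% per library were not whole, and these were rounded before testing. The authors also deposited FPKM values, used here only to compare levels between genes. The authors' own fold changes, p-values and q-values and their TPM columns were not used. Whether counting used the strand is not given in the sources used here.

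Of 16687 rows, 16686 had a gene ID. After edgeR's filterByExpr, 12542 genes were tested with edgeR 4.0.16 (TMM scaling, quasi-likelihood test, genotype only, R 4.3.3) and Benjamini-Hochberg adjustment over all of them. CPM uses TMM-scaled library sizes, and log2 CPM a prior count of 2. The 10 genes and all lists were chosen with earlier results of these data known. From each list, the 2 genes with the smallest p in each direction could be named, and the 2 genes with the highest Pearson's r for each member. Alternatives were DESeq2 1.42.0, limma-voom (limma 3.58.1), DESeq2's way of size factors in edgeR, other filters, a replicate block and leaving out each mouse. Promoter sequences are from RefSeq on GRCm38.p6, with none used for Myod1, Myf6 and Mymk.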

Additional observations from a re-analysis of the deposited data

Results flagged for a closer look

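For 41 genes, the 10 factors, Mybpc2 and the genes named from the lists, the 4 mice of each genotype were searched for a mouse whose gap to its nearest neighbour took up more of the group's range than Dixon's 95% critical value. For independent, normally spread groups chance gives about 1 such group in 20, and 7 of 82 groups had one, 3 of them among the 20 groups of the 10 factors. The list genes were picked by p in these same data, and flags recur in WT replicate 2. The 7 of 82 can therefore not be judged against that rate. Myod1 at 154.8 CPM and Myog at 16.7 CPM were far above the other WT mice in WT replicate 2. Ncam1 at 38.2 CPM and Cdkn1a at 405 CPM stood out in the same mouse. Mef2d at 436 CPM in WT replicate 1 was apart on the low side, because the other WT mice lay within 2 CPM of each other. Myh8 at 4.26 CPM in WT replicate 3 was above the other WT mice, though below C2-/- replicate 3. Mybpc2 at 38.3 CPM in C2-/- replicate 3 was above the other C2-/- mice.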

How the results depend on the processing

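Of 387 values recomputed under an alternative, 352 kept their direction and side of the threshold or moved by less than the spread between mice. The genes called numbered 4, but 30 with DESeq2, 4 to 7 with a mouse left out (7 without WT replicate 2) and 7 without both WT replicate 2 and C2-/- replicate 3, a setting chosen after seeing the data, as was leaving mice out of the pairs. Genes lower at an unadjusted p under 0.05 numbered 239, and 170 to 403 with a mouse left out, the highest without WT replicate 3. The 10 factors had 0 genes at an unadjusted p under 0.05, and 0 to 1 with a mouse left out, Myod1 without WT replicate 2, and also 1, Myod1, without both mice. None was called in any setting. The sign of the log2 fold change turned for 7 of them with a mouse left out, in ranges of -0.13 to 0.27 for Pax7, -0.18 to 0.78 for Myod1, -0.50 to 0.020 for Myf6, -0.85 to 0.28 for Myog, -0.14 to 0.0086 for Mef2a, -0.87 to 0.94 for Mymk and -0.056 to 0.10 for Cdh15. Without both mice Pax7 was at -0.19, Myog at 0.10 and Mymk at 0.42. Mymk was at 0.24 with limma-voom. The replicate numbers did not pair the mice (correlations of the same-numbered deviations of 0.267, 0.042, -0.0507 and 0.0212, with 2 of 8 libraries closest to their own number), and with a replicate block 4 genes were called, 660 passed unadjusted and Mymk was at 0.10. In the order of levels 2 genes changed rank with the median of 4 mice, 0 to 2 with a mouse left out. Pairs past adjustment numbered 0, and 0 to 3 with a mouse left out. Pax7, Myf5 and Mymk rest on few counts, and with at least 10 counts required in every mouse Myf5 and Mymk were not tested. The cause of these shifts was not tested.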
